A study of Mus musculus with 4 samples.

Results

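Checkpoint receptor-low CD8 T cells of mouse ovarian tumours were 51 cells: 33 in the vehicle control matrix and 18 in the IL_27 matrix. They were picked by their own transcript counts from 20607 kept cells. A cell had to hold a CD8 transcript (Cd8a or Cd8b1), a CD3 transcript (Cd3d, Cd3e or Cd3g), no Cd4 or Foxp3 and next to no RNA of macrophages, neutrophils, tumour cells or dividing cells. Together 248 cells passed this CD8 gate. The receptor-low cells are those of the 248 with at most 1 UMI (unique molecular identifier, 1 per captured transcript) of Pdcd1, Lag3 and Havcr2 summed, and the other 197, with 2 or more, are called receptor-positive here. The genes of the gate chose the cells, so their levels are a description.

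CD8 T cells kill target cells that show them peptides on MHC class I molecules. Pdcd1 (PD-1), Lag3 and Havcr2 (TIM-3) encode inhibitory receptors that T cells put on their surface after antigen contact and keep when the contact is prolonged, as in tumours. Naive, memory and recently arrived T cells carry little of them; many such cells express the transcription factors Lef1, Tcf7 and Klf2 and the sphingosine phosphate receptor S1pr1, through which T cells leave tissues for lymph and blood.

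The hosts were B6C3F1 mice of 6 to 8 weeks, with tumours under the skin from OV2944-HM1, a transplantable ovarian cancer line of this strain background that is also called HM1. The control mice were given vehicle and the IL_27 mice 100 ng of recombinant mouse interleukin 27, a cytokine of the interleukin 12 family, into the tumour from implantation onward, every other day. All tumours were taken on day 14, and CD45-positive (blood-derived) cells were enriched from them with magnetic beads for 5' droplet RNA sequencing. Each group is 1 count matrix (n = 1). GEO shows 2 entries for each, whose titles differ in the S and L numbers of a bracketed tag. Single cells are not assigned to these entries, and how many mice a matrix pools is not given in the sources used here. Without replicates nothing below is tested. Every interval below is a 95% interval for counting error only and says nothing of the spread between mice.

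The 2 matrices held 10784 and 10183 barcodes, of which 10617 and 9990 were kept, with a median of 2408 and 1870.5 UMIs per kept cell. Of all barcodes 133 occur in both matrices, but none of the 51 receptor-low cells is among them. Doublet scoring called none of the 51 cells a doublet, although it marked 0 cells of the whole control matrix and so has not worked there; 5 control and 4 IL_27 members were among the 8% of cells with the highest scores.

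The receptor-low cells were shallower than the receptor-positive ones, and the limit of 1 receptor UMI depends on depth. Control receptor-low cells held 758 to 9341 UMIs with a median of 4630, and IL_27 receptor-low cells 816 to 7451 with a median of 2870.5. The medians of the receptor-positive cells were 7160 and 6733. Under 2000 UMIs lay 7 of 33 and 8 of 18 receptor-low cells, against 3 of 145 and 2 of 52 receptor-positive cells. When every CD8-gated cell with 1000 UMIs or more was thinned to 1000 UMIs at random, 119 of 176 control and 47 of 67 IL_27 cells passed as receptor-low. Among them were 60.4% of the control and 61.5% of the IL_27 cells that were receptor-positive at full depth. Of the 119 and 47 cells, 32 and 15 were receptor-low at full depth. A shallow cell can thus pass as receptor-low because its receptor RNA was not captured. Values "at equal depth" below are those with the limit of 1 receptor UMI applied to the thinned cells, their levels still taken from all their UMIs. In the IL_27 matrix that choice brought the intervals of many ratios between the sides to hold 1.

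**Figure D1:**
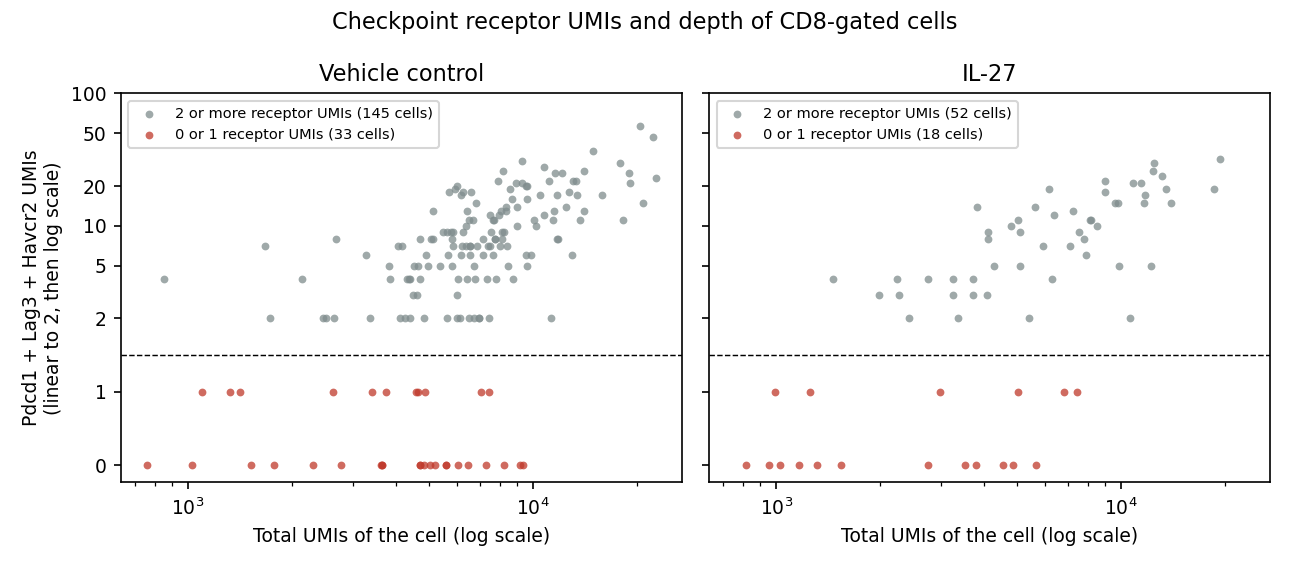
Each point is a CD8-gated cell, with its total UMIs on a log axis and the sum of its Pdcd1, Lag3 and Havcr2 UMIs on the vertical axis, in the control and the IL_27 matrix. The receptor-low cells (0 or 1 receptor UMIs, 33 and 18 cells, below the dashed line) include most of the cells under 2000 UMIs, and also cells of up to 9341 UMIs.

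Of the label's markers outside the rule, Ccl5 was seen in most cells, and Ly6c2 and Gzmk in fewer. Cd8a and Cd8b1, the chains of the CD8 coreceptor, were both present in 25 of 33 control and 7 of 18 IL_27 members. T cell receptor constant region UMIs (Trac, Trbc1 or Trbc2) were found in 31 of 33 and 16 of 18. Ccl5, a chemokine of memory and effector T cells, had UMIs in 27 of 33 and 18 of 18 cells. Ly6c2, a surface protein of memory CD8 T cells (measured beside its near copy Ly6c1, between which reads may be split), had UMIs in 15 and 4 cells. Gzmk, a granzyme of memory-like CD8 T cells, had UMIs in 16 and 4 cells. The rule asked for a CD8 UMI, so Cd8a and Cd8b1 do not check the name, and of the label's other markers Ccl5 is the one widely seen in the IL_27 matrix. Free RNA was low for these genes: in neutrophil-gated cells, which should lack them, Cd8a was found in 0.0924% of control cells and Ccl5 in 1.29% of control and 1.77% of IL_27 cells, at median depths of 2580 and 1947 UMIs. Ly6c2 was found in 8.27% and 3.89% of neutrophil-gated cells.

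Markers of other cell types were found at low levels in the receptor-low cells, and much of the myeloid RNA lay in 1 IL_27 cell. Of 10 NK cell markers 4 had any UMI in control and 3 in IL_27 members, 192 and 407 CPM in sum (counts per 1000000 UMIs of the same cells), and the defining NK receptor gene Ncr1 was at 0 in both. The gamma-delta T cell gene Trdc, the B cell gene Cd79a and the dendritic cell genes Xcr1 and Clec9a were also at 0 in both. The 11 neutrophil markers summed to 399 CPM in control and 1594 CPM in IL_27 members, and in 20 of 33 and 13 of 18 cells all of them were at 0. A single IL_27 cell, the deepest of the 18 with 7451 UMIs, held 52 of their 59 Il1b UMIs, 18 of the 19 UMIs of Lyz2, a lysozyme gene of myeloid cells, and 14 of the 19 Zeb2 UMIs. The macrophage markers summed to 55.0 and 443 CPM (20 UMIs in a single IL_27 cell), and the dendritic cell markers to 344 and 478 CPM, all of them at 0 in 11 of 33 and 9 of 18 cells. The part of such RNA in the levels below was not tested.

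Receptor-low cells made up 18.5% of control CD8-gated cells (13.1% to 25%) and 25.7% of IL_27 CD8-gated cells (16% to 37.6%). The IL_27 share was 1.39 times the control share (0.735 to 2.54), so no difference was detectable with these cell numbers. At an equal depth of 1000 UMIs the shares were 67.6% and 70.1%, a ratio of 1.04 (0.724 to 1.47). Of all kept cells, receptor-low cells were 0.311% (0.214% to 0.436%) in the control and 0.180% (0.107% to 0.285%) in the IL_27 matrix, a ratio of 0.580 (0.307 to 1.06). That interval left 1 with at least 2 CD8 UMIs (0.403, 0.182 to 0.831), with at least 1 Cd8b1 UMI (0.440, 0.204 to 0.889), without a mitochondrial limit (0.544, 0.290 to 0.988) and at equal depth (0.447, 0.312 to 0.631). All CD8-gated cells together were 1.68% and 0.701% of kept cells, a ratio of 0.418 (0.312 to 0.554). Shares of kept cells also move with the yield of every other cell type in the bead sort.

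Genes of recirculation and early memory were higher in receptor-low than in receptor-positive cells of both matrices. S1pr1 (ENSMUSG00000045092, chromosome 3, 115710433 to 115715072, minus strand in GRCm38) stood at 151 CPM (94.8 to 229) in control and 248 CPM (136 to 416) in IL_27 receptor-low cells. In receptor-positive cells it stood at 16.2 and 12.9 CPM. The ratios of receptor-low over receptor-positive were 9.34 (4.82 to 18.2) and 19.3 (6.55 to 68.3). The counts behind them were small: 22 UMIs in 13 of 33 cells and 14 in 8 of 18, with at most 5 in a cell.

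Klf2 (ENSMUSG00000055148, chromosome 8, 72319033 to 72321656, plus strand), a transcription factor that switches on S1pr1 in resting T cells, was 5.01 (3.31 to 7.51) times as high in receptor-low as in receptor-positive control cells and 8.6 (3.76 to 20.1) times in the IL_27 matrix. Its levels were 282 and 266 CPM in receptor-low cells against 56.3 and 30.9 CPM. Its relative Klf3 (ENSMUSG00000029178, chromosome 5, 64803388 to 64832901, plus strand) showed ratios of 9.95 (5.98 to 16.7) and 20.6 (7.13 to 72.6), from 254 and 266 CPM against 25.6 and 12.9 CPM. Both genes are also common in neutrophil-gated cells, of which 56.6% (control) and 47.3% (IL_27) held a Klf2 UMI and 43.8% and 35.3% a Klf3 UMI. A single receptor-low cell held at most 12 (control) and 6 (IL_27) Klf2 UMIs, the latter in the IL_27 cell with most Lyz2 UMIs. The shares of receptor-low cells with Klf2 were 33.3% and 38.9%, and the part of neutrophil RNA in Klf2 and Klf3 was not tested. S1pr1, in contrast, was found in 0.323% and 0.848% of neutrophil-gated cells.

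Lef1 (ENSMUSG00000027985, chromosome 3, 131110471 to 131224356, plus strand), a transcription factor of naive and stem-like T cells, stood at 186 CPM (122 to 270.1) and 248 CPM (136 to 416) in receptor-low cells, against 26.4 and 64.4 CPM in receptor-positive ones. Its ratios were 7.02 (4.03 to 12.2) in the control and 3.85 (1.85 to 7.7) in the IL_27 matrix. Tcf7, which encodes TCF-1, the partner factor of LEF-1, had ratios of 2.75 (1.39 to 5.16) and 2.69 (1.1 to 6.04). At equal depth the Tcf7 ratios were 1.65 (0.881 to 3.28) in the control and 14.7 (2.45 to 601) in the IL_27 matrix. Bach2, a repressor of effector genes, and Foxp1, a factor of T cell quiescence, followed with 4.76 (2.21 to 9.89) and 3.56 (2.23 to 5.54) in the control and 3.75 (1.14 to 11.1) and 4.13 (1.84 to 8.86) in the IL_27 matrix. Satb1, a chromatin organiser of thymocytes and naive T cells, was 2.54 and 1.95 times as high, the latter 1.32 (0.908 to 1.96) at equal depth.

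The early memory and naive list of 20 genes had 14 genes with enough UMIs (20 over both sides) in the control matrix. In receptor-low cells 10 of these were higher and 1 was lower by 1.5 times or more, with a median log2 ratio of 1.29. Over all 6360 genes measured in that comparison 16.2% were higher and 28.7% lower by that much, and the median log2 ratio was -0.12. IL_27 receptor-low cells had 7 of 11 higher and 2 lower, with a median of 0.96, where 18.1% of all 3172 genes were higher, 34.2% lower and the median was -0.19. The gene that ran against the list in both matrices was Ccr7, the receptor that guides naive T cells and mature dendritic cells into lymph nodes. It was lower in receptor-low cells, 0.319 (0.19 to 0.504) and 0.351 (0.184 to 0.61) times, and 83 of the 480 control and 53 of the 255 IL_27 receptor-positive UMIs lay in a single cell each.

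The size of these ratios depended on how the cells were chosen. With cells of 2000 UMIs or more, S1pr1 was 9.46 and 19.5 times as high, Klf3 10.6 and 19.5 times and Lef1 7.18 and 3.72 times. With the receptor limit applied at 1000 UMIs, which moves many receptor-positive cells to the low side, S1pr1 was 4.05 (1.59 to 13.2) and 3.93 (0.924 to 35.2) times as high. Lef1 was then 2.41 (1.23 to 5.14) and 1.25 (0.603 to 2.78) times as high, and Klf2 6.13 in the control but 1.04 (0.427 to 2.79) in the IL_27 matrix. The median of the early memory list in the control matrix was then 0.58 on the log2 scale.

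The share of cells with any Lef1, Tcf7 or Ccr7 UMI did not separate the sides once depth was equal. At full depth it was 60.6% (20 of 33) of control receptor-low against 38.6% (56 of 145) of receptor-positive cells, and 55.6% (10 of 18) against 59.6% (31 of 52) in the IL_27 matrix. With each cell thinned to 1000 UMIs and its side kept as chosen at full depth, the shares were 25% (11.5% to 43.4%) against 21.5% (15.1% to 29.1%) in the control. The IL_27 shares were 33.3% (11.8% to 61.6%) against 36.5% (23.6% to 51.0%). Ccr7 UMIs, which were more frequent on the positive side, are part of these shares. Most control receptor-low cells with an early memory UMI also held effector RNA: 17 cells had such a UMI together with Ccl5 and Nkg7 UMIs of 2 or more, and 3 had it alone.

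Chemokine receptors differed in direction: Cxcr3, Ccr2 and Cxcr4 were higher in receptor-low cells, and Cxcr6, the receptor for CXCL16 on tumour-resident T cells, was lower, 0.67 (0.514 to 0.861) and 0.281 (0.133 to 0.525) times. Cxcr3, the receptor for interferon-induced chemokines on effector and memory T cells, had 24 UMIs in 13 control and 5 UMIs in 2 IL_27 receptor-low cells. Its ratios were 5.86 (3.32 to 10.2) and 6.88 (1.58 to 29.9), and no Cxcr3 UMI was left on the low side in IL_27 when no receptor UMI was allowed. At equal depth the IL_27 ratio of Cxcr3 was 4.42 (0.612 to 194). Ccr2, the receptor for monocyte-attracting chemokines that memory T cells share, was 6.1 (3.7 to 9.96) and 9.17 (4.07 to 21.2) times as high. Of its 16 IL_27 UMIs, 9 lay in a single cell and 4 in the cell with most Lyz2 UMIs. Cxcr4, the receptor for CXCL12, was 2.16 (1.39 to 3.26) and 2.1 (1.24 to 3.43) times as high. Cd69, an early activation and tissue retention gene whose protein binds and removes S1PR1, was higher as well, 4.14 (2.25 to 7.39) and 5.73 (2.22 to 14.5) times. Of the migration list of 16 genes, 6 of 12 were higher and 1 lower in the control matrix, where 16.2% and 28.7% of all genes were. In the IL_27 matrix 2 of 12 were higher and 5 lower, near the 18.1% and 34.2% of all genes.

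By the rule for named genes, which asks for the same direction and wide detection in both matrices, Emb led the genes that were higher in receptor-low cells. Emb (ENSMUSG00000021728, chromosome 13, 117208536 to 117274415, plus strand) encodes embigin, a partner protein of lactate transporters. It stood at 811 CPM (671 to 971) in control and 921 CPM (688 to 1208) in IL_27 receptor-low cells, against 187 and 312 CPM in receptor-positive cells. It was seen in 23 of 33 and 11 of 18 receptor-low cells, with medians of 3 and 1.5 UMIs per cell and highest values of 16 and 12. The ratios were 4.34 (3.44 to 5.46) and 2.96 (2.09 to 4.12). The rule also named Madd (3.01 and 2.75), Gramd3 (3.55 and 2.4), Gna13 (2.06 and 3.8), Clint1 (1.95 and 2.17) and Zfp36l2, a binder of mRNA that holds lymphocytes in quiescence (2.23 and 3.64). Smad7, an inhibitor of TGF-beta signalling, had ratios of 1.95 and 2.32; at equal depth they were 1.08 and 0.812. Ly6c2, Satb1 and Cxcr4 completed the 10. In the IL_27 matrix the equal-depth ratios of Madd, Zfp36l2, Gna13, Clint1 and Cxcr4 were 1.37, 1.40, 1.55, 1.20 and 1.64, each with an interval that holds 1, and that of Emb was 4.79 (2.86 to 8.59). In the control matrix Emb came down to 1.75 (1.36 to 2.27) at equal depth.

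Ly6c2 (ENSMUSG00000022584, chromosome 15, 75108158 to 75111970, minus strand) was higher in receptor-low cells, by more in the control than in the IL_27 matrix. Its level was 1375 CPM (1191 to 1579) in control receptor-low and 258 CPM in control receptor-positive cells, a ratio of 5.32 (4.43 to 6.38). In the IL_27 matrix it was 549 CPM (373 to 779) against 276 CPM, a ratio of 1.99 (1.29 to 3), and 1.24 without the cell with the most UMIs on each side. At equal depth the IL_27 ratio was 1.39 (0.943 to 2.1). Its UMIs were uneven: 18 of 33 control cells had none, and the highest held 37 of 200.

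**Figure D2:**
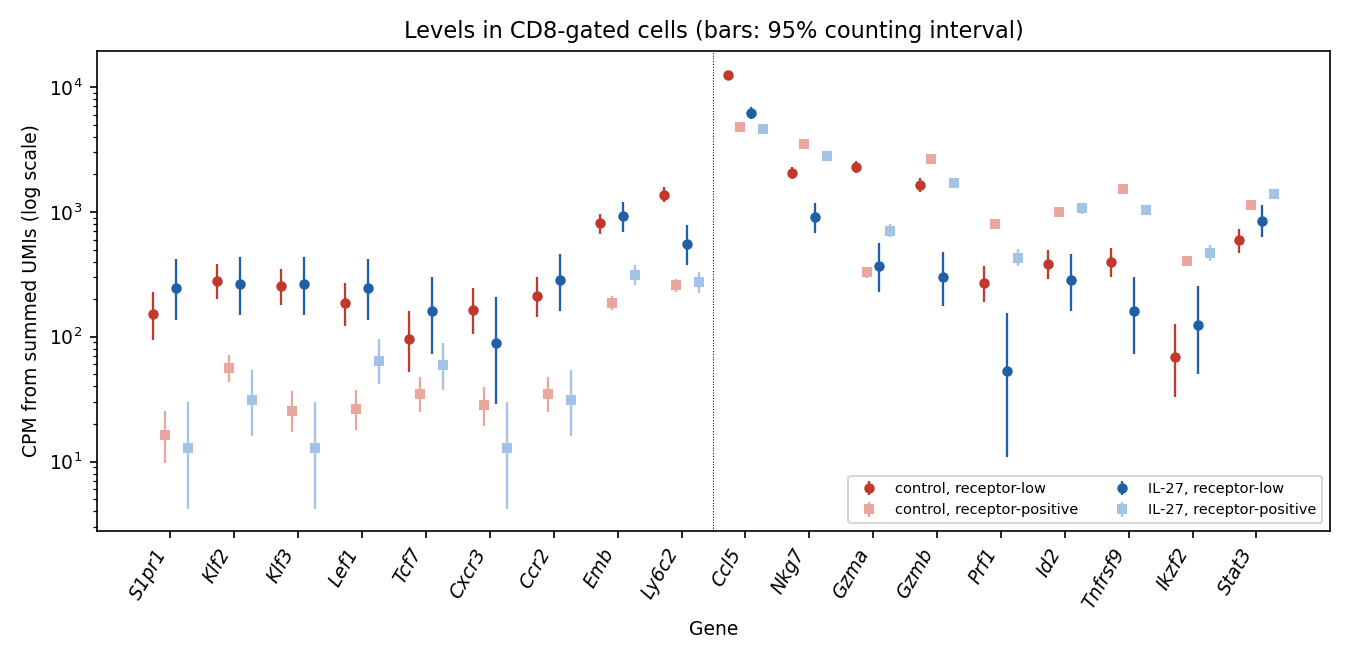
Levels in CPM on a log axis, from summed UMIs, of 18 genes in receptor-low (circles) and receptor-positive (squares) cells of the control (red) and IL_27 (blue) matrix, with 95% counting intervals. Left of the dotted line the circles lie above the squares of the same colour for all 9 genes; right of it Nkg7, Gzmb, Prf1, Id2, Tnfrsf9, Ikzf2 and Stat3 lie lower in receptor-low cells, while Ccl5 lies higher in both matrices and Gzma higher in the control matrix only.

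Next to conventional CD4-gated T cells (49 control and 120 IL_27 cells), receptor-low cells were close in some of these genes and apart in others. Over CD4 cells the S1pr1 ratio was 0.863 (0.488 to 1.49) in the control and 1.28 (0.679 to 2.25) in the IL_27 matrix. The ratios of Klf2, Klf3, Lef1 and Cxcr3 over CD4 cells lay between 0.724 and 1.56, each with an interval that holds 1. Tcf7 was lower than in CD4 cells, 0.392 (0.202 to 0.714) in the control matrix and 0.526 (0.236 to 1.02) in the IL_27 matrix. Il7r was also lower, 0.210 (0.137 to 0.310) and 0.516 (0.324 to 0.785). In the control matrix Emb was lower, 0.615 (0.493 to 0.763), and Ccr2 higher, 1.87 (1.07 to 3.28), while their IL_27 intervals held 1. Against NK-gated cells (33 and 41), S1pr1 was 31.4 (5.08 to 1296) and 17.5 (4.88 to 94.9) times as high, from 1 and 3 NK cell UMIs. Klf2 was 1.17 (0.755 to 1.81) and 2.81 (1.34 to 5.77) times, Emb 0.873 (0.688 to 1.1) and 1.11 (0.801 to 1.53) times and Tcf7 0.625 (0.308 to 1.20) and 0.489 (0.214 to 0.983) times the NK cell level. Several effector genes were higher than in CD4 cells: Ccl5 was 9.15 and 14.7 times, Nkg7 7.95 and 7.18 times and Gzmk 10.3 and 6.66 times as high. Gzmb was 12.1 times as high in the control matrix and 0.813 (0.465 to 1.33) times in the IL_27 matrix.

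Genes of exhaustion and late activation other than the 3 receptors were lower in receptor-low cells in both matrices. Of 20 listed genes, 11 of 18 with enough UMIs were lower by 1.5 times or more in the control matrix and none higher, with a median log2 ratio of -1.20, where 28.7% of all genes were lower. Among IL_27 cells 11 of 14 were lower and none higher, with a median of -1.09, where 34.2% of all genes were lower. At equal depth the medians shrank to -0.44 and -0.33, and in cells of 2000 UMIs or more they were -1.14 and -0.75. Tnfrsf9, the costimulatory receptor 4-1BB, stood at 399 CPM (303 to 515) and 159 CPM (72.9 to 303) against 1528 and 1040.3 CPM. Its ratios were 0.261 (0.197 to 0.339) and 0.153 (0.0695 to 0.294), and at equal depth 0.460 and 1.04. In cells of 2000 UMIs or more they were 0.217 and 0.142. Ikzf2, which encodes Helios, had ratios of 0.17 (0.0812 to 0.316) and 0.264 (0.105 to 0.556), which became 0.777 and 0.833 at equal depth. The Ikzf2 ratios were 0.146 and 0.179 in cells of 2000 UMIs or more. Tox, a transcription factor of exhausted T cells, had 7 and 2 UMIs in receptor-low cells, with ratios of 0.338 (0.134 to 0.712) and 0.382 (0.0446 to 1.48). At equal depth the Tox ratio was 1.02 (0.739 to 1.41) in the control but 0.320 (0.155 to 0.641) in the IL_27 matrix. With cells of 2000 UMIs or more the Tox ratios were 0.308 and 0.464, the latter with an interval that holds 1. Ctla4 and Tigit, 2 further inhibitory receptors, were present on the low side: Ctla4 at 302 and 195 CPM with ratios of 0.821 (0.588 to 1.12) and 0.569 (0.277 to 1.05), and Tigit, with 0.759 (0.512 to 1.14) in the IL_27 matrix at equal depth, at 302 and 106 CPM with ratios of 0.763 (0.547 to 1.04) and 0.389 (0.14 to 0.876).

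As the rule requires, the receptors themselves were nearly absent: Pdcd1 had 5 and 5 UMIs, Lag3 4 and 1, and Havcr2 2 and 0 in the control and IL_27 receptor-low cells. Just inside the limit, at 1 receptor UMI, were 11 control and 6 IL_27 cells, and just outside it, at 2, were 18 and 4. Control cells with 0, 1 and 2 receptor UMIs had Nkg7 levels of 1937, 2347 and 2489 CPM, Ly6c2 levels of 1346, 1446 and 755 CPM and Tnfrsf9 levels of 329, 569 and 542 CPM. Their Gzmb levels ran the other way from Nkg7, 1820, 1209 and 766 CPM, and their median depths were 4759.5, 3738 and 5225 UMIs. IL_27 cells with 0, 1 and 2 receptor UMIs had Nkg7 levels of 908, 897 and 413 CPM and Gzmb levels of 469, 81.6 and 1100 CPM. Ly6c2 stood at 595, 489 and 0 CPM and Tnfrsf9 at 93.9, 245 and 413 CPM in these IL_27 cells.

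The cytotoxic genes were mostly lower in receptor-low cells, but the cells were not without them. Of 24 listed genes, 15 of 23 were lower and 2 higher by 1.5 times or more in the control matrix (median log2 ratio -0.87), and 17 of 21 lower and 1 higher in the IL_27 matrix (median -1.37, or -0.11 at equal depth). The shares of all genes that were lower were 28.7% and 34.2%. In cells of 2000 UMIs or more the list medians were -1.14 and -1.48. Prf1, the pore-forming protein perforin, stood at 268 CPM (191 to 367) and 53.1 CPM (11 to 155) against 806 and 430.0 CPM, with ratios of 0.333 (0.235 to 0.458) and 0.124 (0.0252 to 0.367). At equal depth the IL_27 ratios of Prf1, Gzmb and Nkg7 were 0.719 (0.524 to 0.991), 0.560 (0.481 to 0.653) and 0.551 (0.489 to 0.620). Gzmb, granzyme B, stood at 1643 and 301 CPM against 2637 and 1715 CPM, with ratios of 0.623 (0.544 to 0.711) and 0.176 (0.102 to 0.283). Nkg7, a protein of cytotoxic granules, was 0.587 (0.52 to 0.66) and 0.323 (0.239 to 0.427) times as high, and was still found in 28 of 33 and 13 of 18 receptor-low cells. The granzymes Gzmd, Gzme and Gzmf, near copies between which reads may be split, had no UMI in any of the 51 cells. In receptor-positive cells Gzmf had 942 and 150 UMIs, 531 of the former in a single cell. Taken against a floor of 3 counts on the low side, Gzmf was at least 38.9-fold and at least 7.27-fold lower in receptor-low cells. At equal depth its ratios were 0.126 (0.106 to 0.149) and 0.407 (0.291 to 0.569).

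The naming rule gave 10 genes as lowest in receptor-low cells, Gzmf among them, each with 0 UMIs on the low side of both matrices. They included Tff1, a trefoil peptide, at least 3.02-fold and 2.96-fold lower, and Pkp4, a junction protein, at least 3.8-fold and 1.84-fold lower. The others were Tnfsf4 (OX40 ligand), Stap1, Sv2c, Rpa3, Neb, Mrps5 and Gipc2, with bounds from 1.65-fold (Gipc2) to 3.72-fold (Tnfsf4) in the control matrix. Their bounds in the IL_27 matrix reached from 0.969 (Mrps5) to 1.84 (Neb). A bound near 1 or under it does not show a gene to be lower in the IL_27 matrix. At equal depth the control ratios of Sv2c, Rpa3 and Mrps5 turned to 2.02, 1.37 and 1.20, and those of Pkp4, Tnfsf4 and Gipc2 were 0.732, 0.673 and 0.622, with intervals that hold 1. The IL_27 ratios at equal depth were 1.56 for Tnfsf4, 1.17 for Rpa3, 1.05 for Gipc2, 0.928 for Stap1, 0.757 for Tff1, 0.546 for Pkp4 and 0.402 for Mrps5, with intervals that hold 1, and 0.214 for Sv2c and 0.255 for Neb, with intervals below 1.

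Gzma and Ccl5 ran the other way in control cells. Gzma (ENSMUSG00000023132, chromosome 13, 113093825 to 113100981, minus strand), granzyme A, stood at 2289 CPM (2050.0 to 2549) in control receptor-low against 329.9 CPM in receptor-positive cells, a ratio of 6.94 (5.97 to 8.05). It was seen in 14 of 33 cells, up to 74 UMIs in a cell, and 11 of those cells also held Ly6c2. In the IL_27 matrix the ratio was 0.527 (0.321 to 0.822), but 20 of 21 UMIs on the low side and 220 of 274 on the positive side lay in 1 cell each, and at equal depth the ratio turned to 35.7. Ccl5 stood at 12505 CPM (11937 to 13093) and 6198 CPM (5565 to 6882) in receptor-low cells, 2.6 (2.46 to 2.74) and 1.33 (1.18 to 1.49) times the receptor-positive level. The control cells ranged from 0 to 336 Ccl5 UMIs with a median of 21, and the IL_27 cells from 1 to 88 with a median of 8. For the IL_27 matrix the direction of Ccl5 turned when each cell had equal weight (0.978) and at equal depth (0.581).

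**Figure D3:**
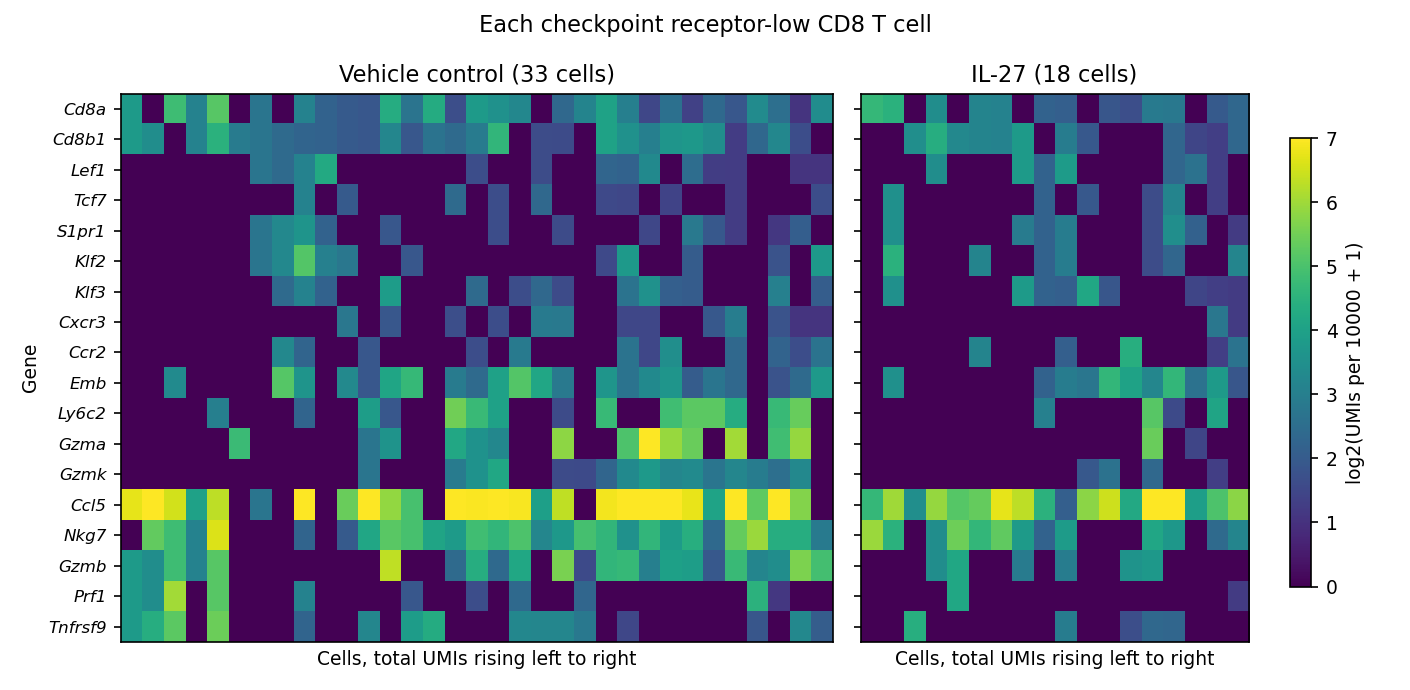
Each column is 1 receptor-low cell, ordered by total UMIs within its matrix, and each row a gene; the colour is the log2 of the gene's UMIs, scaled to a common depth per cell, plus 1, drawn up to 7. Ccl5 is seen in 27 of 33 control and all 18 IL_27 cells, Ly6c2 and Gzma in 15 and 14 of the control cells and in 4 and 2 of the IL_27 cells.

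Interferon-stimulated genes were higher in receptor-low cells of the control matrix. Of 34 listed genes, 22 of 26 were higher by 1.5 times or more and none lower, with a median log2 ratio of 1.17, or 0.13 at equal depth. IL_27 receptor-low cells had 3 of 14 higher and 2 lower, with a median of 0.30, which turned to -0.29 at equal depth and to -0.067 without the 8% highest doublet scores. In cells of 2000 UMIs or more the medians were 1.22 in the control and 0.23 in the IL_27 matrix. Of all genes 16.2% were higher and 28.7% lower in the control matrix, and 18.1% and 34.2% in the IL_27 matrix. Ifi27l2a stood at 2839 CPM (2572 to 3127) in control receptor-low cells against 1298 CPM, a ratio of 2.19 (1.96 to 2.44), and at 584 against 1051 CPM in the IL_27 matrix, a ratio of 0.556 (0.378 to 0.794). Slfn1, Zbp1 and Rtp4, further interferon-stimulated genes, had control ratios of 5.02 (3.15 to 7.9), 3.12 (1.99 to 4.79) and 4.26 (2.31 to 7.62). The antiviral genes Ifit1, Ifit3 and Ifit3b were carried by few cells: 8 of 33 control receptor-low cells held a UMI of any of them, and a single cell held 10 of the 20 Ifit3 UMIs. In neutrophil-gated cells of the same matrix Ifit3 was found in 8.46% and Ifi27l2a in 54.1% of cells, and the part of that RNA was not tested.

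Glycolysis genes were lower in receptor-low cells, 11 of 16 in the control and 7 of 10 in the IL_27 matrix, with medians of -0.72 and -0.75 and none higher, where 28.7% and 34.2% of all genes were lower. Gapdh was 0.632 (0.559 to 0.712) and 0.402 (0.298 to 0.532) times and Hif1a, the hypoxia-sensing factor, 0.518 (0.375 to 0.701) and 0.655 (0.446 to 0.932) times the receptor-positive level. Of MHC class I genes 0 of 15 were past 1.5 times in either direction in the control matrix, where 44.9% of all genes were. Id2, a factor of effector CD8 T cells, was 0.383 (0.288 to 0.501) and 0.266 (0.15 to 0.437) times, Il2rb, the beta chain of the interleukin 2 and 15 receptors, 0.511 (0.409 to 0.633) and 0.617 (0.441 to 0.844) times, and Stat3, a signal carrier of the interleukin 27 receptor, 0.523 (0.415 to 0.651) and 0.606 (0.441 to 0.814) times as high. The Stat3 ratios came to 0.929 and 0.869 at equal depth and the IL_27 ratio of Il2rb to 0.904, with intervals that hold 1.

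The leading V segment was read for each cell that held a segment UMI, since most T cells express receptor RNA from a single rearranged beta chain. UMIs of 2 or more Trbv segments were found in 3 of 28 control and 1 of 7 IL_27 receptor-low cells with a Trbv UMI. Among receptor-positive cells they were found in 41 of 143 and 15 of 48. The segments below are those that lead in receptor-positive cells (Trbv16, Trbv4) and those that lead most often in control receptor-low cells (Trbv13-1, Trbv13-3). Each line gives the last 90 bases of the segment's transcript in GENCODE M21 (GRCm38), 5′ to 3′, with capitals from the conserved cysteine codon (TGT), where the variable CDR3 loop begins.
Trbv16 (chr6:41152141-41152230, plus strand): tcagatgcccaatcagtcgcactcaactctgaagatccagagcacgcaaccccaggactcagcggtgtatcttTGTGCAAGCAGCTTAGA
Trbv4 (chr6:41059797-41059886, plus strand): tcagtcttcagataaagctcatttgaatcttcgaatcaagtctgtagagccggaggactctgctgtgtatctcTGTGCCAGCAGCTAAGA
Trbv13-1 (chr6:41116379-41116468, plus strand): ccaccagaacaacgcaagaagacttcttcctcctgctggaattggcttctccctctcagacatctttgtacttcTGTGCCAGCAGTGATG
Trbv13-3 (chr6:41130496-41130585, plus strand): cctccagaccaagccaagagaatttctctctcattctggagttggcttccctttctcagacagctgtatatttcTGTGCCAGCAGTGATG

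No beta segment dominated in control receptor-low cells, where a single segment led in 42.0% of the receptor-positive ones. A Trbv UMI was found in 28 of 33 control receptor-low cells, and 10 segments led in at least 1 of the 28. The most frequent were Trbv13-1 and Trbv13-3, with 4 cells each (14.3%, 4.03% to 32.7%). Trbv16 led in 1 of the 28 cells (3.57%), against 60 of 143 receptor-positive cells (42.0%, 33.8% to 50.5%). Beta and alpha segments were both seen in 18 receptor-low cells, which carried 17 different pairs, and only the pair Trbv20 with Trav14-1 occurred in 2 cells. In control receptor-positive cells 12 segments led, and 53 of 124 cells with both chains carried the pair Trbv16 with Trav14-1, among 36 pairs.

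In the IL_27 matrix a Trbv UMI was found in 7 of 18 receptor-low cells, and those without had a median of 1312 UMIs. Among the 7, 6 segments led, Trbv16 in 2 cells and Trbv4 in none, a count of 0 that allows a share of up to 42.9%. In IL_27 receptor-positive cells Trbv4 led in 27 of 48 (56.3%, 41.2% to 70.5%). When the receptor limit was applied at 1000 UMIs, Trbv16 led in 36.5% of the control and Trbv4 in 41.7% of the IL_27 cells on the low side, since most of them were receptor-positive at full depth. Alpha segments with near-identical copies (the d and n forms) may be assigned to the wrong copy.

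**Figure D4:**
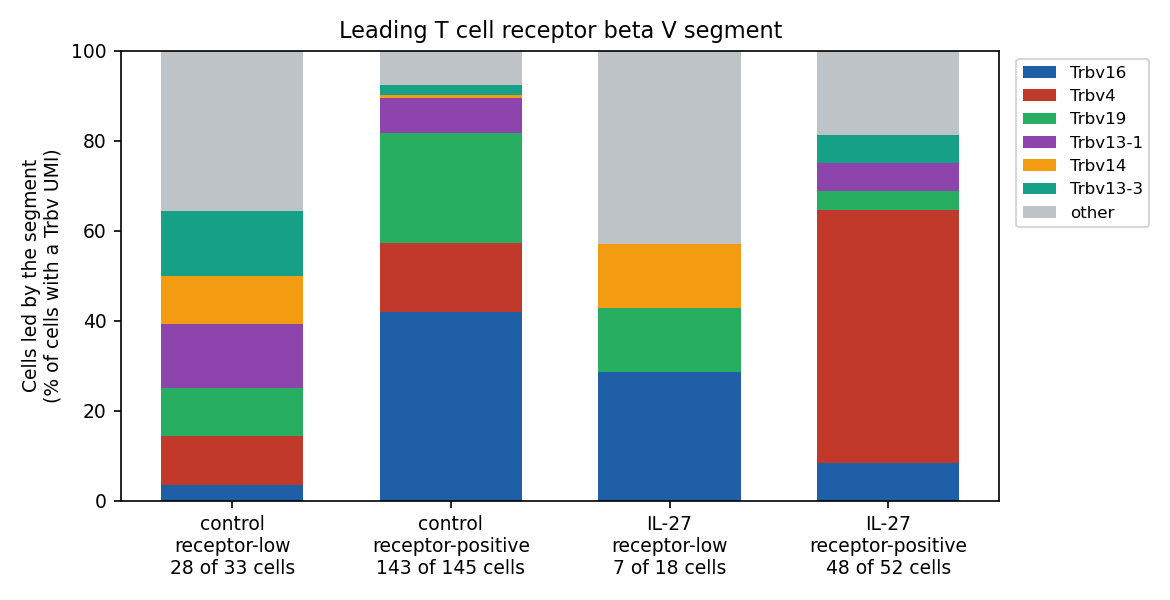
Bars give the share of cells led by each beta V segment, in percent of cells with a Trbv UMI, for receptor-low and receptor-positive cells of both matrices; the numbers of cells stand under the bars. Trbv16 fills 42.0% of the control and Trbv4 56.3% of the IL_27 receptor-positive cells; Trbv16 leads 3.57% of control and Trbv4 0% of IL_27 receptor-low cells; the IL_27 receptor-low bar rests on 7 cells.

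Between the matrices, the IL_27 receptor-low cells had lower effector RNA than the control ones, while the intervals of Klf2, Klf3, Lef1 and S1pr1 held 1. Over the 1440 genes with at least 20 UMIs in the 51 cells, 16.2% were higher and 31.5% lower by 1.5 times or more in IL_27 cells, and the median log2 ratio was -0.22. Housekeeping genes were on the lower side too: 8 of 14 were lower and none higher, with a median of -0.78. Actb was 0.482 (0.414 to 0.559), Tmsb4x 0.545 (0.486 to 0.61) and Pfn1 0.385 (0.284 to 0.514) times the control level. The IL_27 cells were shallower, had a higher median mitochondrial share (2.19% against 1.52%) and a higher share of the nuclear RNA Malat1 (0.823% against 0.654% of UMIs), and the part of cell quality in the values below was not tested.

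Granule and chemokine genes were lower in IL_27 receptor-low cells. Gzmb had 1643 CPM (1441 to 1865) in control and 301 CPM (175 to 482) in IL_27 cells, with a ratio of 0.183 (0.105 to 0.300), and was seen in 23 of 33 and 6 of 18 cells. The ratios of Gzmk, Prf1 and Nkg7 were 0.215 (0.0763 to 0.49), 0.198 (0.0392 to 0.623) and 0.439 (0.32 to 0.593). Gzma was 0.162 times the control level by summed UMIs and was seen in 14 control and 2 IL_27 cells. Ccl5 was 0.496 (0.441 to 0.556) and Ly6c2 0.399 (0.264 to 0.585) times the control level. The cytotoxic list had 7 of 12 genes lower and 1 higher, with a median log2 ratio of -0.62, where 31.5% of all genes were lower and 16.2% higher. The gene that was higher was the chemokine Ccl4, 4.95 (2.44 to 10.5) times, with 22 of 25 UMIs in 1 cell. Housekeeping genes had a median of -0.78, below that of the cytotoxic list. The ratios of Ccl5, Nkg7 and Ly6c2 lay within the range of Actb, Tmsb4x and Pfn1 given above, and those of Gzmb, Gzmk, Prf1 and Gzma below it. At equal depth, where most low-side cells were receptor-positive at full depth, the cytotoxic median turned to 0.30, Gzma to 1.30, and Gzmb came to 0.665. In cells of 2000 UMIs or more the median was -0.79, with Gzma at 0.184 and Gzmb at 0.164. The lower level of the list and of Gzma thus depends on which cells are taken as receptor-low. Most Gzma UMIs of the IL_27 receptor-positive cells lay in 1 cell, whose part in the turn of Gzma was not tested. Without the cell with most Gzma UMIs in each matrix, the ratio at full depth was 0.0105.

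The interferon-stimulated list was lower, with 13 of 17 genes lower, none higher and a median of -1.03. Of all genes 31.5% were lower and 16.2% higher, and the median of the housekeeping genes was -0.78. Ifi27l2a was 0.206 (0.14 to 0.294) times the control level, and Ifit3 had 20 UMIs in control and 0 in IL_27 cells, at least 2.59-fold lower against a floor of 3 counts. MHC class I genes were lower in 8 of 14, with a median of -0.80, near the median of the housekeeping genes. H2-D1 was 0.614 (0.488 to 0.767) times and B2m 1.01 (0.837 to 1.21) times the control level, and the H2-Q genes are near copies whose reads may be split.

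The early memory list stood on the higher side: 6 of 11 genes were higher by 1.5 times or more and none lower, with a median of 0.71. Of all genes 16.2% were higher and 31.5% lower by that much. Il7r, the interleukin 7 receptor that keeps naive and memory T cells alive, was 2.04 (1.13 to 3.66) times and Satb1 1.79 (1.1 to 2.88) times as high. Il7r had 29 UMIs in 5 of 33 control cells and 23 in 10 of 18 IL_27 cells, with at most 12 and 4 in a cell. The other 4 (Cd28, Ccr7, Tcf7 and S1pr1) had ratios of 1.88 (0.985 to 3.54), 1.76 (0.800 to 3.76), 1.66 (0.632 to 4.11) and 1.64 (0.776 to 3.35), each with an interval that holds 1. The ratios of Klf2, Klf3, Lef1 and Emb were 0.942 (0.485 to 1.74), 1.04 (0.532 to 1.95), 1.34 (0.647 to 2.64) and 1.14 (0.803 to 1.59), with intervals that hold 1 as well. At equal depth several of these intervals left 1: Klf2 was 0.493 (0.276 to 0.830), Lef1 1.69 (1.02 to 2.76), Tcf7 2.08 (1.25 to 3.41) and Emb 1.74 (1.42 to 2.13) times the control level, while Klf3 and S1pr1 were 0.844 (0.477 to 1.43) and 1.26 (0.654 to 2.33).

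Of genes of interleukin 27 signalling, 8 of 16 had enough UMIs, of which 3 were higher and 1 was lower, where 16.2% and 31.5% of all genes were. Socs3, a feedback inhibitor that STAT3 switches on, had 96.2 CPM (52.6 to 161) in control and 248 CPM (136 to 416) in IL_27 receptor-low cells. The ratio was 2.58 (1.14 to 5.83). Each matrix had 14 Socs3 UMIs, 7 of the IL_27 ones in 1 cell, and at equal depth the ratio turned to 0.669. Irf1 was 2.58 (1.1 to 6.03), Jak2 1.97 (0.88 to 4.31) and Stat3 1.44 (0.988 to 2.07) times the control level. The receptor chain Il27ra had 10 UMIs in control and 1 in IL_27 receptor-low cells, a ratio of 0.258 (0.00594 to 1.81), which does not show a difference at this depth.

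By the naming rule the genes highest in IL_27 over control receptor-low cells were Tab2, Itgb1, Rbm25, Spata13, Ythdc1, Hsp90aa1, Fth1, Pcbp2, Il7r and Rab8b, in this order, from 3.43 (1.67 to 7.21) to 1.94 (1.26 to 2.99) times the control level. Tab2 encodes an adaptor of NF-kappa-B signalling, and Itgb1 the integrin beta 1 chain of matrix adhesion, whose ratio of 2.58 (1.51 to 4.38) was 1.23 (0.939 to 1.59) at equal depth. Rbm25 stood at 1.21 (0.874 to 1.65) at equal depth. Fth1, the heavy chain of ferritin, had UMIs in every one of the 51 cells, at 4289.8 and 8978 CPM, but it was also found in 100.0% of control neutrophil-gated cells, and its ratio of 2.09 was 1.23 at equal depth. Hsp90aa1, a heat shock chaperone, had a ratio of 2.11, which turned to 0.782 at equal depth.

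The 10 lowest had 0 or 1 UMI in the 18 IL_27 cells. Sf3b2, a splicing factor subunit, had 41 UMIs in 22 of 33 control cells and none in IL_27 cells, at least 5.31-fold lower, and 0.695 at equal depth. Ccng1, Srp19 and Mov10 also had none, from 23, 23 and 21 control UMIs. Psma1, Rab8a, Gimap7, Anp32b, Ndufs4 and Ifi27 had 1 UMI each, with ratios of 0.092 (0.00225 to 0.556) to 0.107 (0.00261 to 0.658). At equal depth Srp19, Mov10, Psma1, Rab8a and Anp32b had ratios of 0.897, 0.592, 0.770, 0.785 and 0.722, each with an interval that holds 1.

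**Figure D5:**
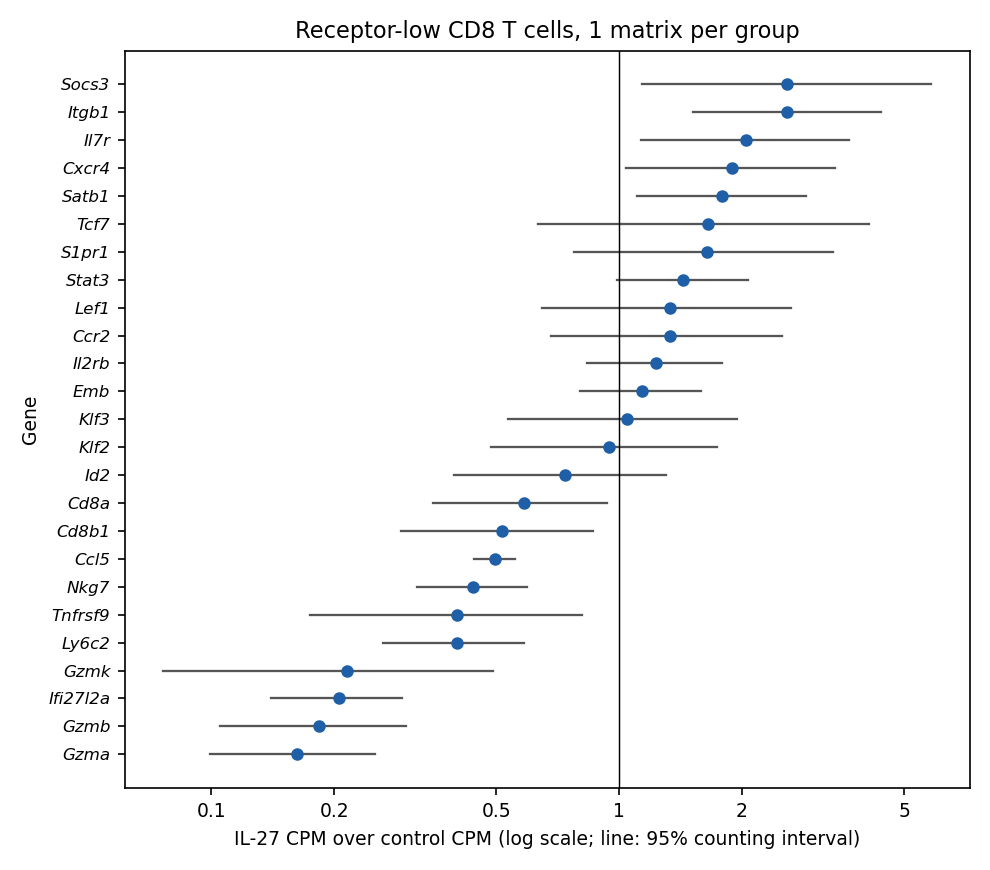
Points give the level in IL_27 over control receptor-low cells for 25 genes on a log axis, and lines the 95% counting interval. Gzma, Gzmb, Ifi27l2a and Gzmk lie lowest, between 0.162 and 0.215, Klf2 and Klf3 lie at 0.942 and 1.04, and Il7r, Itgb1 and Socs3 lie above 2.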

How the data were processed

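The authors deposited raw UMI counts, a matrix of genes by barcodes for each of the 2 groups. Libraries came from the Chromium 5' kit, version 2, per the labels' protocols. The submitters' processing notes name Cell Ranger 4.0, Seurat 3.2.0 and the mm10 build; what Seurat did is not given in the sources used here.

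Kept cells had at least 200 genes, 500 UMIs and under 10% mitochondrial UMIs. The gate allowed 1 UMI of C1qa, C1qb and C1qc, 4 of S100a8 and S100a9, 1 of Krt8 and Krt18 and 1 of Mki67 and Top2a. UMIs were summed per matrix and side and divided by their total (145461 and 56473 in receptor-low cells) for levels in CPM. Intervals at 95% are exact Clopper-Pearson for shares, Poisson for levels and conditional binomial for ratios, and cover counting error only. UMIs from 1 cell are not independent, so these intervals are narrow. On counts drawn from Poisson distributions with the pooled means of the members, 97.0% of the intervals over 1562 genes held the true ratio. Of 200 genes changed 3-fold in these counts, 71.5% had an interval off 1 (comparison of IL_27 with control members). Such counts hold no clustering of UMIs within cells, so this coverage checks the computation and not how the intervals hold for these data. Doublets were scored with Scrublet in scanpy 1.11.5 and not removed. V segments, positions and sequences came from GENCODE M21.

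Genes of a list were called higher or lower from 1.5 times on, over genes with at least 20 UMIs on both sides together. Between matrices, named genes are the 10 highest and 10 lowest ratios where the matrix of higher level has 20 UMIs or more of the gene, in 10% of its members and at most 25% of them in a single cell. Between sides, the same 20 UMIs and 10% of cells were required in both matrices, ranked by the smaller absolute value of the 2 log2 ratios. A ratio of 0 ranked lowest, ties by total UMIs; Pdcd1, Lag3 and Havcr2 were left out, which the written rule did not state. Mitochondrial, ribosomal, receptor segment, antibody, hemoglobin and model genes were left out. The cells and lists were chosen with earlier results of these data known. The further genes given by cell or across alternatives, the genes named from a list, those shown in plots, and the pairs of genes seen together were picked after their values were seen. The gates of CD4 T cells, NK cells and neutrophils were written after the matrices were read. Alternatives covered the receptor limit, the CD8 and mitochondrial limits, doublets, other lineages, depth, the weight of cells and the highest cell.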

Additional observations from a re-analysis of the deposited data

Results flagged for a closer look

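For 5 genes the difference between receptor-low and receptor-positive cells ran in opposite directions in the 2 matrices, at least 1.5 times each way and with both counting intervals off 1. The difference between the matrices was not tested, since each group has 1 matrix. The conditions on size and intervals were set after the data were seen.

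Gzma had a log2 ratio of receptor-low over receptor-positive of 2.79 in the control and -0.92 in the IL_27 matrix, where single cells held 20 of 21 and 220 of 274 UMIs on the low and the positive side. Ifi27l2a, an interferon-stimulated gene, had 1.13 and -0.85. Zeb2, a factor of terminal effector T cells that was also found in 56% of control neutrophil-gated cells, had -2.25 and 2.17, with 14 of the 19 UMIs of IL_27 receptor-low cells in 1 cell. The myeloid and NK cell gene Fcer1g had -1.62 and 1.38, from 7 and 11 UMIs on the low side. Lyz2 had -2.90 and 4.44, with 18 of 19 UMIs of IL_27 receptor-low cells and 101 of 181 UMIs of control receptor-positive cells in 1 cell each. The IL_27 cell with most Zeb2 and Lyz2 UMIs is the same cell, so these 2 reversals rest mainly on it.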

How the results depend on the processing

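With 51 cells, 1 matrix per group and 145461 and 56473 UMIs, a gene at 0 in a matrix could still stand at up to 20.6 CPM (control) or 53.1 CPM (IL_27), by a floor of 3 counts. No paired analysis was possible because each group has 1 matrix and its cells carry no replicate number. Of the shares, counts, list medians and segment shares, 254 recomputed values stayed within their limits, 22 moved and 3 turned; of the gene ratios 1423 stayed, 167 moved and 14 turned. List medians were recomputed for the early memory, exhaustion, cytotoxic and interferon-stimulated lists. Restricting the cells to 2000 UMIs or more, an alternative chosen after the data were seen, left 26 and 10 members. With no receptor UMI allowed (22 and 12 cells) the control share became 12.4% of CD8-gated and 0.207% of kept cells, 145 genes were higher and 297 lower between matrices, the exhaustion median between matrices was -1.35, Trbv16 led in 0% of control receptor-low cells and the IL_27 Cxcr3 ratio was 0. With the limit at 1000 UMIs, whose low side holds mostly receptor-positive cells by its construction, the shares became 67.6% and 70.1% of CD8-gated and 1.32% and 0.588% of kept cells; 771 genes were higher and 1087 lower between matrices, and 612 and 479 lower between sides; 6 T cell lists, in place of 10, had a median below 0. The medians between sides were 0.58 (early memory, control), -0.44 and -0.33 (exhaustion), -0.11 (cytotoxic, IL_27), and 0.13 and -0.29 (interferon-stimulated); the cytotoxic median between matrices was 0.30, and Trbv16 and Trbv4 led in 36.5% and 41.7%. Under the same choice these ratios, whose intervals were off 1 before, turned: Hsp90aa1 0.782, Gzma 1.30 and Socs3 0.669 between matrices; Sv2c 2.02, Rpa3 1.37, Mrps5 1.20 and Tox 1.02 between sides in the control; Smad7 0.812, Ccl5 0.581, Gzma 35.7 and Tnfrsf9 1.04 in the IL_27 matrix. Tnfsf4 (1.56), Rpa3 (1.17) and Gipc2 (1.05), at 0 before with intervals that held 1, also passed 1 there. Without the 8% highest doublet scores the IL_27 interferon-stimulated median was -0.067. With equal weight for each cell, Gzmk was 0.989 in the control and Ccl5 0.978 in the IL_27 matrix.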

Other observations

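Among listed genes not described above, Icos, a costimulatory receptor, was 2.27 (1.78 to 2.88) times as high in receptor-low as in receptor-positive cells of the control matrix and 0.637 (0.381 to 1.01) times in the IL_27 matrix. Cd44, the hyaluronan receptor of antigen-experienced T cells, was 3.86 (2.05 to 7.45) times as high in IL_27 as in control receptor-low cells, with 10 of 27 UMIs in 1 cell. Cxcr6 was 0.384 (0.176 to 0.752) times the control level in IL_27 receptor-low cells. Rgs16, an activation-induced regulator of chemokine signalling, was 0.423 (0.256 to 0.663) and 0.275 (0.0994 to 0.613) times the receptor-positive level. These 4 genes were chosen after their values were seen.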
